A study of Mus musculus with 6 samples.

Results

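The tissue inhibitors of metalloproteinases and the membrane-anchored inhibitor RECK were followed in infarcted mouse heart tissue. The 5 genes, *Timp1*, *Timp2*, *Timp3*, *Timp4* and *Reck*, were chosen by symbol and mapped to their NCBI gene numbers, and all of them were found among the 17441 genes listed in any library. All 5 also passed the filter on low values and were tested.

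TIMP proteins are small secreted proteins that sit in the active site of matrix metalloproteinases and block the cleavage of collagens and other matrix proteins. The family members differ in their targets. TIMP1 is a weak inhibitor of most membrane-type metalloproteinases such as MMP14, TIMP2 can hold pro-MMP2 on MMP14 so that it is activated, TIMP3 is bound to the matrix and also blocks ADAM and ADAMTS proteases such as ADAM17, and TIMP4 is known for its expression in the heart. RECK is anchored in the membrane, restrains MMP2, MMP9 and MMP14, and takes part in Wnt7 signalling with ADGRA2. After an infarct the matrix of the dead muscle is broken down and replaced by scar, and the balance of proteases and inhibitors is a classical subject of research on cardiac rupture and dilatation.

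RNA was measured in the heart tissue below the ligature, 3 days after surgery, in male mice that were 12 weeks old by the labels and on a C57BL/6 background. WT Sham mice had the operation without ligation, WT MI mice had the left anterior descending coronary artery ligated, and *Card9* KO MI mice, by their label knockouts of the myeloid signalling adaptor CARD9, had the same ligation. The WT mice of the study were littermates and C57BL/6 mice, and which of them gave these libraries is not given in the sources used here. There were 2 libraries in each group. A sham group of the knockout was not analysed here, so that genotype and infarction cannot be told apart between *Card9* KO MI and WT Sham, and nothing in the labels says which libraries came from separate hearts, so that p-values measure the spread between these libraries.

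Values are FPKM, fragments scaled to transcript length and to the mapped fragments of the library, so that levels can be set side by side between genes, while comparisons between libraries depend on their scaling. Read from the spacing of low values, the depth was 3016000 to 4320000 fragments a library, and a 2 kb transcript with 3 fragments then has an FPKM of 0.347 to 0.497. The FPKM of the targeted gene *Card9* was 0.99 and 1.03 for WT Sham, 3.39 and 5.08 for WT MI, and 9.85 and 6.94 for *Card9* KO MI. The libraries labelled *Card9* KO MI thus did not have less of it (log2 fold change against WT MI 0.85, adjusted p = 0.112 by limma), and which exons were read cannot be seen from these values, so each direction drawn against WT MI rests on the label. The 9 cardiomyocyte markers summed to an FPKM of 25135 to 49600 in every library. The median log2 fold change of all genes tested was 0.19 for WT MI against WT Sham and 0.24 for *Card9* KO MI against WT Sham in the values as deposited, and upper-quartile scaling brought these medians to 0.00 and 0.03.

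All positions are in mm9. *Timp1* (NCBI gene 21857) lies at chrX:20447292-20451861 on the plus strand and has 6 exons. *Timp2* (NCBI gene 21858) lies at chr11:118162383-118217054 on the minus strand, *Timp3* (NCBI gene 21859) at chr10:85763117-85812251 on the plus strand, and *Timp4* (NCBI gene 110595) at chr6:115195634-115201867 on the minus strand, each with 5 exons. *Reck* (NCBI gene 53614) lies at chr4:43888402-43957678 on the plus strand and has 21 exons. Members of the family sit inside synapsin genes, which encode proteins of synaptic vesicles. *Timp1* lies within intron 5 of *Syn1*, *Timp3* within intron 6 of *Syn3* and *Timp4* within intron 5 of *Syn2*, each on the strand opposite to its host and with 0 shared exon bases. The *Timp2* model contains another gene of the same strand, *BC100451*, also with 0 shared exon bases. Whether the counting used strand is not given in the sources used here.

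The upstream sequences of *Timp1* and *Timp4* are shown because these members changed most in opposite directions. Both are the 250 bases before the start in the RefSeq table of GRCm38.p6, found letter for letter in mm9, at chrX:20447042-20447291 on the plus strand for *Timp1* and at chr6:115202224-115202473 on the minus strand for *Timp4*. The *Timp4* window ends 356 bases before the mm9 gene model, and the windows of *Timp2* and *Timp3*, which are not printed, overlap theirs. Capitals mark matches, on either strand, to the ETS core CNGGAAG and to the GC box GGGCGG that SP1 binds.
Timp1: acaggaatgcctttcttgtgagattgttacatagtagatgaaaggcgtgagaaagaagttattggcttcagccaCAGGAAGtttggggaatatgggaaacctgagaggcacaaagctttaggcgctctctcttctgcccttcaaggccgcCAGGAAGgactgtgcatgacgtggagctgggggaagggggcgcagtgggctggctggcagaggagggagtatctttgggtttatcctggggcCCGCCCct
Timp4: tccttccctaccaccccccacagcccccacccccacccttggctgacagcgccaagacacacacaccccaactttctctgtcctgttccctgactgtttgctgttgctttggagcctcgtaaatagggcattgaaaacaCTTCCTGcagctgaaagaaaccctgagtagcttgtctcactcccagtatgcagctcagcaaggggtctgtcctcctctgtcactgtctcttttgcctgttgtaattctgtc

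The *Timp1* window has ETS matches at −176 to −170 and −100 to −94, and a GC box on the minus strand at −8 to −3, counted back from the start. The *Timp4* window has a single ETS match on the minus strand at −111 to −105 and no GC box match. Each of the 5 members has an ETS match in its window, a motif that 26.58% of all 32851 windows hold, and the members other than *Timp4* have a GC box, which 32.74% hold. The letters TGANTCA of AP-1 (6.75% of windows), TTCNNNGAA of STAT factors (7.02%), TATAAA of the TATA box (12.37%) and CACGTG of the E-box (6.02%) were in none of the 5 windows. These matches are letters in a window and not binding sites. GC content was 54.4% for *Timp1*, 53.6% for *Timp4*, 68.0% for *Timp2*, 65.6% for *Timp3* and 68.4% for *Reck*, against a median of 52.4% over all windows.

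**Figure D1:**
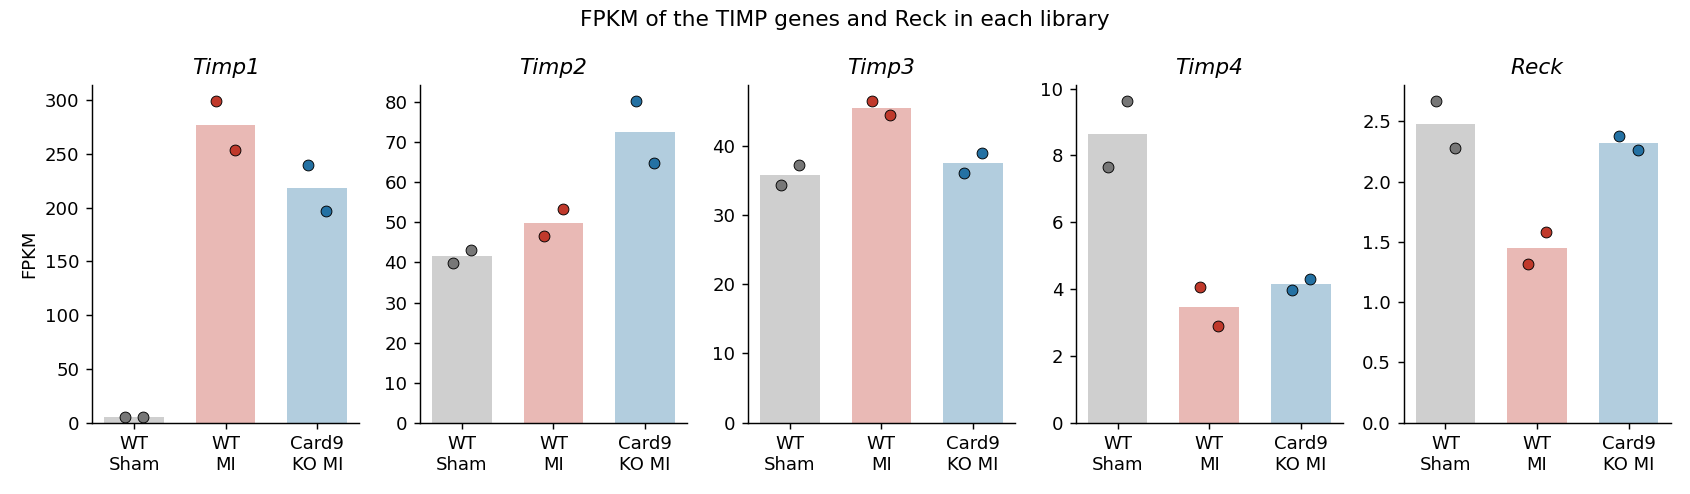
FPKM of each member in the 6 libraries (y axis, a scale of its own in each panel) by group (x axis). Points are libraries and bars are group means of 2 libraries. *Timp1* stands near 5 in WT Sham and at 197 to 299 in the infarct libraries, while *Timp4* is lower in all 4 infarct libraries than in WT Sham.

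In WT Sham, the inhibitors with the highest FPKM were *Timp2* and *Timp3*, followed by *Timp4*, *Timp1* and *Reck*. *Timp2* and *Timp3* did not overlap, but the gap between their nearest libraries was smaller than the distance between the libraries of either gene. The gaps from *Timp3* to *Timp4*, from *Timp4* to *Timp1* and from *Timp1* to *Reck* were each wider than the distance between the libraries of either gene beside them. In WT MI, *Timp1* came first, *Timp2* and *Timp3* overlapped, and *Timp4* and *Reck* came last. For *Card9* KO MI the order was *Timp1*, *Timp2*, *Timp3*, *Timp4* and *Reck*, with no overlap between neighbours. *Timp1* thus went from rank 7704 and 7729 among all genes by FPKM in the WT Sham libraries to 248 and 299 for WT MI and 314 and 382 for *Card9* KO MI.

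The make-up of the TIMP transcripts changed with this. *Timp1* held 6.15% and 5.49% of the summed FPKM of the 4 *Timp* genes for WT Sham, 75.5% and 71.6% for WT MI, and 66.5% and 64.5% for *Card9* KO MI. The share of *Timp2* was 45.7% and 45.3% for WT Sham, 11.7% and 15.1% for WT MI, and 22.3% and 21.3% for *Card9* KO MI. The summed FPKM was 87.1 and 95.4 for WT Sham, 396 and 355 for WT MI, and 360 and 305 for *Card9* KO MI. A single member, *Timp1*, therefore carried most of the sum in every infarct library and the smallest share of it in WT Sham. *Timp3* took 39.4% and 39.1% in WT Sham and 10.04% to 12.79% in the infarct libraries, and *Timp4* took 8.78% and 10.1% in WT Sham and 0.82% to 1.41% in the infarct libraries. Shares within a library do not depend on how libraries are scaled, but they add up to a whole, so a larger share of *Timp1* lowers the others.

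**Figure D2:**
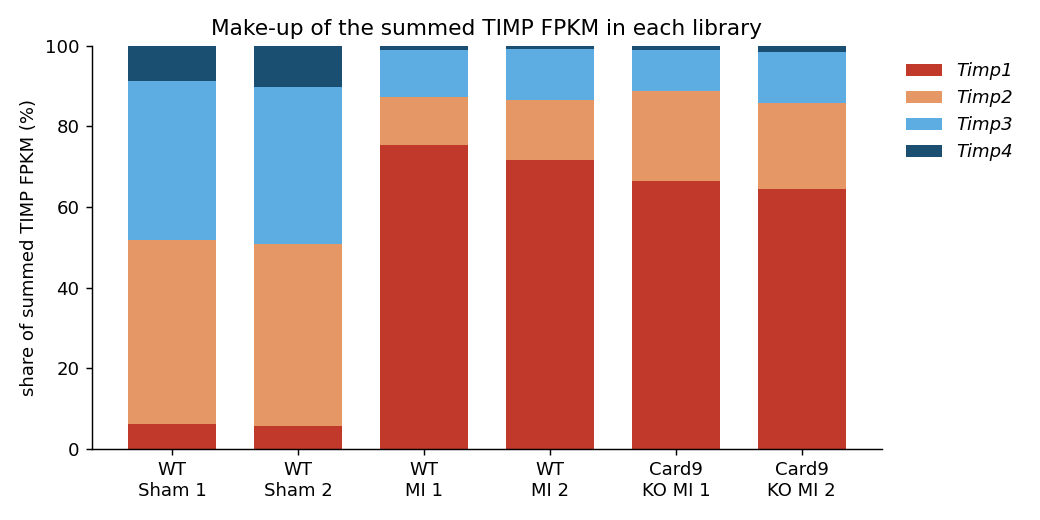
Share of each *Timp* gene in the summed FPKM of *Timp1* to *Timp4* (y axis, percent) in each library (x axis). *Timp2* and *Timp3* fill most of the WT Sham bars, and *Timp1* fills between 64.5% and 75.5% of the infarct bars.

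The first comparison, WT MI against WT Sham, asks how infarction changes the inhibitors. In a limma fit of log2(FPKM + 1) over all 6 libraries, with Benjamini-Hochberg adjustment over 13120 genes, *Timp1* and *Timp3* were called higher and *Timp4* lower at an adjusted p below 0.05. These 2 of 5 called higher stand beside 27.7% of all genes tested, and the 1 called lower beside 9.39%. The median over the members was 0.26 and that over all genes 0.19, so nothing is read from the set as a whole and the results lie with its single members. Between *Card9* KO MI and WT Sham, *Timp1* and *Timp2* were called higher and *Timp4* lower, where 34.8% of all genes were called higher and 14.3% lower, and the medians were 0.07 and 0.24. The 2 comparisons share the WT Sham libraries. In bulk tissue, fewer cells of a type and less RNA per cell cannot be told apart.

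*Timp1*, which encodes the inducible member of the family, rose in infarcted tissue. Its FPKM was 5.36 and 5.24 for WT Sham, 299 and 254 for WT MI, and 239 and 197 for *Card9* KO MI. All infarct libraries were far above both WT Sham libraries, and the lower WT MI library was above the higher *Card9* KO MI library. The means were 5.30 ± 0.0849 (SD, n = 2), 277 ± 32.0 (SD, n = 2) and 218 ± 30.0 (SD, n = 2), which makes WT MI 52.2 times and *Card9* KO MI 41.1 times WT Sham. The estimated fragments behind these values were 14.9 and 14.0 in WT Sham and 709 to 1064 in the infarct libraries, so the counting error of the ratio lies mainly in the sham values. On the log2(FPKM + 1) scale *Timp1* rose by 5.46 in WT MI (standard error 0.13, 95% interval 5.16 to 5.75, adjusted p = 9.85e-07 by limma), which was rank 7 of 13120 genes by size and rank 2 by p. The rise in *Card9* KO MI was 5.11 (standard error 0.13, adjusted p = 8.69e-07 by limma). These standard errors and the interval come from the spread between libraries, with no separate term for the counting error.

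*Syn1*, the host of *Timp1*, moved in the same direction at a much lower level. Its FPKM was 0.19 and 0.20 for WT Sham, 1.76 and 1.57 for WT MI, and 1.87 and 0.89 for *Card9* KO MI. The log2 fold change of WT MI against WT Sham was 1.16 (adjusted p = 0.0117 by limma), a call lost in 2 of 15 alternatives (quantile normalization and without WT MI 1), and *Syn1* was above WT Sham in all 4 infarct libraries. Without strand, reads of the 2 genes cannot be told apart where they overlap, and how much of the *Syn1* value came from *Timp1* was not tested. *Syn2*, the host of *Timp4*, lay between 0.12 and 1.28, and *Syn3*, the host of *Timp3*, between 0.08 and 0.75, with overlapping groups in both genes.

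*Timp4*, the member known from heart muscle, fell in infarcted tissue. Its FPKM was 7.65 and 9.63 for WT Sham, 4.05 and 2.90 for WT MI, and 3.97 and 4.31 for *Card9* KO MI. All 4 infarct libraries were below both WT Sham libraries, and the infarct groups overlapped. The means were 8.64 ± 1.40, 3.48 ± 0.813 and 4.14 ± 0.240 (SD, n = 2 each), so that WT MI stood at 40.2% and *Card9* KO MI at 47.9% of WT Sham, on an estimated 16.0 to 41.1 fragments a library. The log2 fold change was −1.11 in WT MI (standard error 0.19, 95% interval −1.56 to −0.67, adjusted p = 0.00352 by limma) and −0.90 in *Card9* KO MI (standard error 0.19, 95% interval −1.35 to −0.45, adjusted p = 0.00615 by limma). With each scaling and each library left out it stayed called in both comparisons.

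Heart muscle markers fell alongside *Timp4*. The 9 cardiomyocyte markers summed to 48195 and 49600 for WT Sham, 30333 and 30908 for WT MI, and 25135 and 29095 for *Card9* KO MI, and 6 of the 9 were called lower in WT MI and 9 of 9 in *Card9* KO MI against WT Sham. Of all genes, 27.7% and 34.8% were called higher and 9.39% and 14.3% lower in these comparisons. *Timp4* per 1000 FPKM of these markers was 0.159 and 0.194 for WT Sham, 0.134 and 0.0938 for WT MI, and 0.158 and 0.148 for *Card9* KO MI. Relative to heart muscle RNA, WT MI was thus below WT Sham in both libraries, while *Card9* KO MI was just below the lower WT Sham library. The 7 adipocyte markers, a cell type that also expresses *Timp4*, summed to 569 and 647 in WT Sham and to 507 to 660 in the infarct libraries, a sum made up mostly of *Fabp4*, which endothelial cells also express, with *Lep* not listed and *Plin1*, *Cidec* and *Cfd* at 0 in 1 *Card9* KO MI library. *Plin4*, a lipid droplet gene, fell with *Timp4*, by 0.67 in WT MI and by 0.98 in *Card9* KO MI on the log2 scale. Of the 4 adipocyte markers tested, 0 were called higher and 1 lower in each of these comparisons. In WT MI against WT Sham the others had −0.20 (*Fabp4*), −0.18 (*Adipoq*) and 0.74 (*Cfd*), none of them called. The part of either cell type in the *Timp4* difference was not tested.

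*Timp2*, which encodes the inhibitor that also helps to activate pro-MMP2, was highest in *Card9* KO MI. Its FPKM was 39.8 and 43.2 for WT Sham, 46.5 and 53.4 for WT MI, and 80.3 and 64.9 for *Card9* KO MI, and the groups did not overlap. The means were 41.5 ± 2.43, 49.9 ± 4.86 and 72.6 ± 10.9 (SD, n = 2 each). *Timp2* rose in *Card9* KO MI against WT Sham by 0.79 on the log2 scale (standard error 0.13, 95% interval 0.48 to 1.09, adjusted p = 0.00192 by limma), a ratio of means of 1.75. For WT MI the log2 fold change was 0.26 (95% interval −0.04 to 0.56, adjusted p = 0.16 by limma), a ratio of 1.20. *Card9* KO MI against WT MI is described with the other members further on. Smooth muscle and pericyte markers moved with *Timp2*: their sum over 7 genes was 197 and 225 for WT Sham, 287 and 267 for WT MI, and 531 and 511 for *Card9* KO MI. Fibroblast markers did too, at 540 and 516, 1601 and 2117, and 3307 and 3175 in the same order, a sum carried by 3 collagen genes and *Postn*. The other fibroblast markers had log2 fold changes between the infarct groups of −0.52 (*Pdgfra*, adjusted p = 0.0939 by limma), −0.16 (*Dcn*), 0.00 (*Fbln2*), 0.34 (*Lum*) and 0.62 (*Tcf21*). None of these was called. Of the 7 smooth muscle and pericyte markers 4 were called higher and 1 lower in WT MI and 6 higher and 1 lower in *Card9* KO MI against WT Sham, and between the infarct groups 2 of these and 3 of the 9 fibroblast markers were called higher. *Timp2* per 1000 FPKM of fibroblast markers went from 73.8 and 83.7 in WT Sham to 20.5 to 29.1 in the infarct libraries, and per 1000 FPKM of macrophage markers from 149 and 182 to between 45.5 and 56.7. Per 1000 FPKM of smooth muscle and pericyte markers it was 202 and 192 for WT Sham, 162 and 200 for WT MI, and 151 and 127 for *Card9* KO MI, and per 1000 FPKM of endothelial markers 108 and 121, 124 and 143, and 182 and 151. The ratio thus went down or up with the list chosen, and the part of these cells in the *Timp2* difference was not tested.

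*Timp3*, the matrix-bound inhibitor of ADAM17 and the ADAMTS proteases, differed little between groups. Its FPKM was 34.3 and 37.3 for WT Sham, 46.5 and 44.5 for WT MI, and 36.1 and 39.0 for *Card9* KO MI. Both WT MI libraries were above the other 4, and *Card9* KO MI overlapped WT Sham. The means were 35.8 ± 2.13, 45.5 ± 1.44 and 37.6 ± 2.04 (SD, n = 2 each), and the log2 fold change of WT MI against WT Sham was 0.34 (standard error 0.10, 95% interval 0.10 to 0.57, adjusted p = 0.0336 by limma). This call did not hold in 8 of 16 alternatives: with upper-quartile scaling the log2 fold change was 0.13 (adjusted p = 0.381 by limma), and without any 1 of the 4 libraries compared the adjusted p was 0.0606 to 0.155. Between *Card9* KO MI and WT Sham it was 0.07 (95% interval −0.17 to 0.30, adjusted p = 0.609 by limma), with a sign that turned under every other scaling. The 8 endothelial markers summed to 358 to 376 for WT Sham and WT MI and reached 442 and 429 for *Card9* KO MI.

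*Reck*, the membrane-anchored inhibitor, was the lowest member throughout. Its FPKM was 2.67 and 2.28 for WT Sham, 1.32 and 1.58 for WT MI, and 2.38 and 2.26 for *Card9* KO MI. Both WT MI libraries were below all others, and *Card9* KO MI overlapped WT Sham. The means were 2.48 ± 0.276, 1.45 ± 0.184 and 2.32 ± 0.0849 (SD, n = 2 each), on an estimated 23.6 to 45.6 fragments a library. The log2 fold change of WT MI against WT Sham was −0.50 (standard error 0.19, 95% interval −0.95 to −0.06, adjusted p = 0.0756 by limma) and was not called in the values as deposited. It was −0.65 with upper-quartile scaling (adjusted p = 0.0323 by limma) and −0.85 with quantile normalization (adjusted p = 0.0115 by limma), which pass the threshold, and without a trend in eBayes the adjusted p was 0.0284 by limma. The value for *Card9* KO MI against WT Sham was −0.06 (95% interval −0.51 to 0.38, adjusted p = 0.806 by limma).

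The comparison of *Card9* KO MI with WT MI asks how loss of *Card9* changes the infarcted tissue. None of the 5 members was called by limma, where 0.816% of all genes were called higher and 0.587% lower, and at an unadjusted p below 0.05 there were 3 of 5, *Timp1*, *Timp2* and *Timp3*, beside 20.0% of all genes in either direction. The study's screen, recomputed with a fold of at least 2 and a probability of at least 0.8, passed 0 members. *Timp1* had a log2 fold change of −0.34 (95% interval −0.64 to −0.05, adjusted p = 0.19 by limma), *Card9* KO MI being at 78.9% of WT MI. *Timp2* had the largest value, 0.53 (95% interval 0.22 to 0.83, adjusted p = 0.0961 by limma), a ratio of means of 1.45. *Timp3* stood at 82.6% of WT MI (log2 fold change −0.27, 95% interval −0.51 to −0.03, adjusted p = 0.197 by limma). In these 3 genes the libraries of the infarct groups did not overlap, yet the differences did not pass the correction over all genes. The share of all genes without overlap is not given here. With 2 libraries against 2, an exact permutation test reaches no p below 0.333, so nothing is read from a lack of overlap. *Reck* had 0.44 (95% interval −0.01 to 0.89, adjusted p = 0.256 by limma) without overlap, and *Timp4* 0.21 (95% interval −0.23 to 0.66, adjusted p = 0.591 by limma) with overlap. The intervals of *Timp2*, *Timp4* and *Reck* reach up to 0.83, 0.66 and 0.89, and a p that misses the threshold does not show that these genes were alike in the infarct groups.

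**Figure D3:**
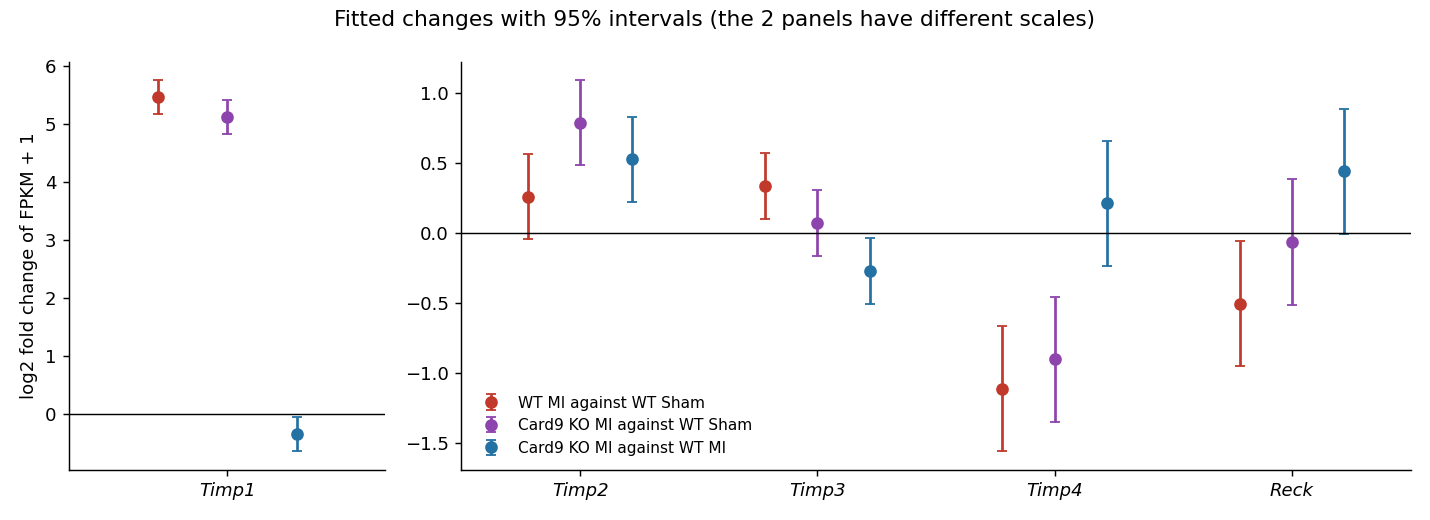
Log2 fold change of FPKM + 1 (y axis, a different scale in each panel) of each member (x axis) in the 3 comparisons, from the limma fit. Points are estimates and bars are 95% intervals from 2 libraries a group. *Timp1* stands at 5.46 and 5.11 against WT Sham, *Timp4* lies below 0 against WT Sham in both infarct groups, and the intervals of *Timp4* and *Reck* between the infarct groups include 0.

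The proteases that these inhibitors bind were compared as lists, beside 27.7% of all genes called higher and 9.39% called lower in WT MI against WT Sham. Of 23 matrix metalloproteinase genes, 15 could be tested, and 8 rose and 1 fell in WT MI against WT Sham, at a median log2 fold change of 1.03 beside 0.19 for all genes. The genes with the largest rises were *Mmp9* (log2 fold change 3.41), a gelatinase, *Mmp12* (3.36), a macrophage elastase, and *Mmp8* (2.58), a neutrophil collagenase. *Mmp14*, the membrane-type activator of pro-MMP2, rose by 2.27, *Mmp15* fell by 0.40 (a call lost in 4 of 16 alternatives), and *Mmp2*, the constitutive gelatinase, had 0.25 (adjusted p = 0.166 by limma). Of 7 ADAM sheddases tested, 6 rose and 0 fell (median 0.77), with *Adam8* at 4.75, *Adam12* at 3.00 and *Adam17*, which sheds TNF, at 0.64. Of 13 ADAMTS genes tested, 5 rose and 0 fell (median 0.52), with *Adamts4*, an aggrecanase, at 2.31. Over the 3 other scalings, 7 to 8 metalloproteinases were called higher and 1 to 2 lower, 6 ADAM genes higher and 0 lower, and 3 to 5 ADAMTS genes higher and 1 lower.

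Between *Card9* KO MI and WT MI, 0 of the 15 metalloproteinases were called higher and 2 lower, at a median of 0.03 beside 0.04 for all genes. Of all genes, 0.816% were called higher and 0.587% lower. Under the 3 other scalings, 0 to 1 metalloproteinases were called higher and 2 lower, so the 0 depends on the setting. The FPKM of *Mmp9* was 0.69 and 0.51 for WT Sham, 24.9 and 10.2 for WT MI, and 3.26 and 2.94 for *Card9* KO MI. The infarct groups did not overlap, but the WT MI libraries lay far apart, and the log2 fold change of −2.05 (adjusted p = 0.0451 by limma) lost its call in 10 of 16 alternatives (range −2.66 to −1.39), among them those with each of the WT Sham libraries and of the *Card9* KO MI libraries and with WT MI 1 left out. *Mmp3*, the stromelysin, had 14.0 and 14.4 for WT MI and 4.12 and 3.78 for *Card9* KO MI (log2 change −1.62, adjusted p = 0.0171 by limma), a call lost in 5 of 16 alternatives, among them each infarct library left out. *Mmp14* had 49.1 and 63.3 for WT MI and 113 and 92.6 for *Card9* KO MI (log2 change 0.86, adjusted p = 0.052 by limma). The 7 ADAM and 13 ADAMTS genes gave 0 calls in either direction. Against WT Sham, *Card9* KO MI had 9 metalloproteinases higher and 1 lower, 7 of 7 ADAM genes higher, and 6 ADAMTS genes higher and 1 lower. Of all genes, 34.8% were called higher and 14.3% lower in this comparison.

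**Figure D4:**
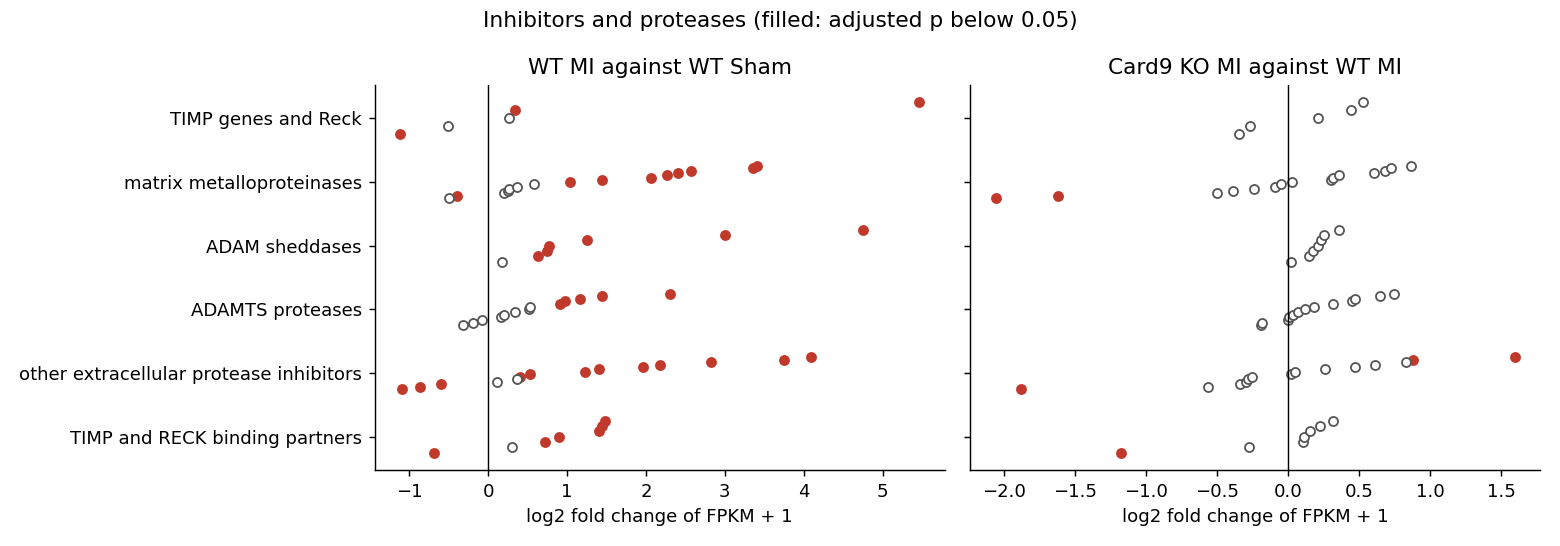
Log2 fold change of FPKM + 1 (x axis) of each tested gene of the inhibitor, protease and partner lists (rows), in WT MI against WT Sham (left) and *Card9* KO MI against WT MI (right). Each point is a gene, filled where the adjusted p is below 0.05. *Timp1* at 5.46 lies to the right of every other gene on the left, and none of the members is filled on the right.

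Set against their proteases in the same library, the inhibitors moved in different directions. These FPKM ratios do not depend on library scaling, say nothing of protein, and were not tested. *Timp1* per *Mmp9* was 7.77 and 10.3 for WT Sham, where *Mmp9* was low at 0.69 and 0.51, 12.0 and 25.01 for WT MI, and 73.4 and 67.0 for *Card9* KO MI. *Timp1* per *Mmp3* was 2.24 and 3.69, 21.4 and 17.7, and 58.1 and 52.1 in the same order. Both ratios were above all other libraries in *Card9* KO MI. There *Timp1*, *Mmp9* and *Mmp3* were each below WT MI, with the calls of *Mmp9* and *Mmp3* lost in 10 and 5 of 16 alternatives. *Timp2* per *Mmp14* was 3.38 and 4.38 for WT Sham, 0.947 and 0.844 for WT MI, and 0.710 and 0.702 for *Card9* KO MI, so the inhibitor went from above its protease to below it. *Timp2* per *Mmp2* stayed between 1.54 and 2.11 in all 6 libraries. *Reck* per *Mmp14* was 0.227 and 0.231 in WT Sham and 0.0210 to 0.0269 in the infarct libraries.

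*Timp3* per *Adam17* was 2.92 and 3.39 for WT Sham, 2.47 and 2.52 for WT MI, and 1.63 and 1.91 for *Card9* KO MI, without overlap between groups. *Timp3* per *Adamts4* was 28.6 and 70.4 in WT Sham, where *Adamts4* was low, and 3.82 to 6.41 in the infarct libraries. *Timp4* per *Mmp2* was 0.308 and 0.365 in WT Sham and 0.0835 to 0.149 in the infarct libraries. Apart from *Timp1*, and from *Timp2* against *Mmp2*, the infarct libraries were thus below WT Sham in each of these pairs. The sum of *Timp1* to *Timp4* per sum of all metalloproteinases was 0.854 and 0.927 for WT Sham, 1.99 and 1.66 for WT MI, and 1.39 and 1.38 for *Card9* KO MI, and without *Timp1* it was 0.801 and 0.876, 0.487 and 0.473, and 0.465 and 0.489. The direction of the summed ratio against WT Sham therefore turned with the inclusion of *Timp1*.

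**Figure D5:**
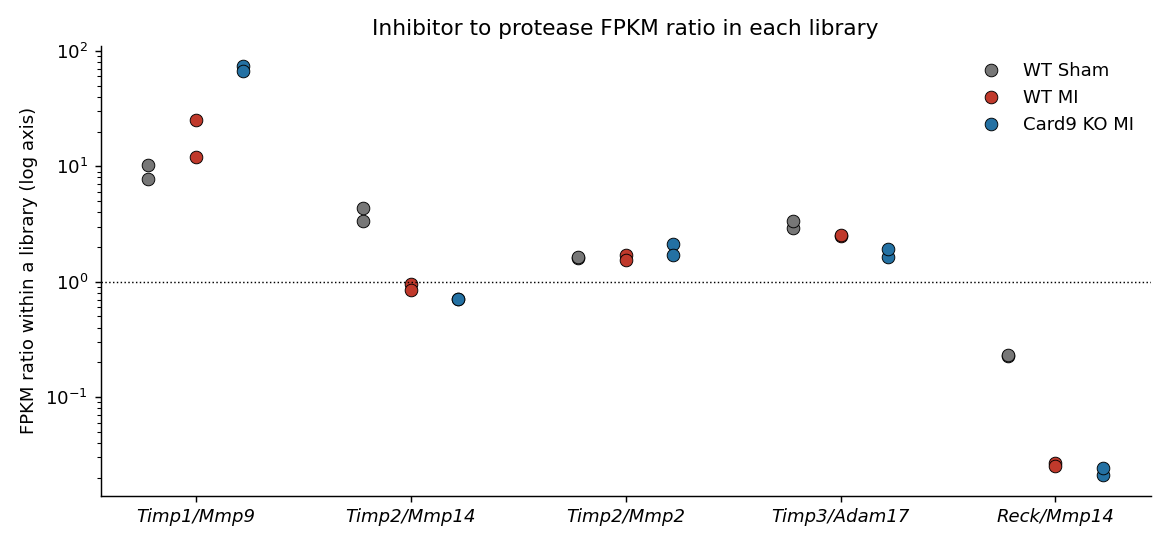
FPKM of an inhibitor divided by that of a protease in the same library (y axis, log axis) for 5 pairs (x axis). Points are libraries, coloured by group, and the dotted line marks a ratio of 1. *Timp1*/*Mmp9* is highest in *Card9* KO MI, and *Timp2*/*Mmp14* and *Reck*/*Mmp14* are lower in all infarct libraries than in WT Sham.

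Binding partners of TIMP and RECK proteins were followed as a list of 9 genes, of which 7 were tested. In WT MI against WT Sham, 5 rose and 1 fell (median 0.90), beside 27.7% and 9.39% of all genes, and 4 to 5 rose and 1 fell under the 3 other scalings. *Cd63*, a tetraspanin that binds TIMP1 at the cell surface, rose by 1.44, *Lrp1*, the receptor that takes up TIMP and protease complexes, by 1.40, and *Adgra2*, the partner of RECK in Wnt7 signalling, by 1.48. *Kdr*, the VEGF receptor that TIMP3 can block, fell by 0.68. In *Card9* KO MI against WT MI, *Efemp1*, a fibulin that binds TIMP3, was the only partner called, at −1.17 (adjusted p = 0.0482 by limma), a call lost in 11 of 15 alternatives, among them each of the 6 libraries left out. Against WT Sham, *Card9* KO MI had 4 partners higher and 2 lower, beside 34.8% and 14.3% of all genes.

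Other protease inhibitors, mostly of serine proteases, were compared as a list of 19 genes, of which 14 were tested. Of these, 9 rose and 3 fell in WT MI against WT Sham (median 0.88), beside 27.7% and 9.39% of all genes, and 7 rose and 3 fell under the 3 other scalings. The named ones were *Serpina3n* at 4.10, *Serpinb1a* at 2.82 and *Papln* at −1.10, a call lost in 1 of 15 alternatives, without WT MI 1. *Timp1* had a larger log2 fold change than any of them. In *Card9* KO MI against WT MI, *Serpina3n* fell by 1.88 (adjusted p = 0.0042 by limma) and kept its call in all 16 alternatives, while *Serpinb1a* rose by 1.59 (adjusted p = 0.00946 by limma) and *Wfdc1* by 0.88 (adjusted p = 0.0337 by limma), calls lost in 5 and 10 of 16, among them each infarct library left out. Between the infarct groups the *Timp* genes and *Reck* thus gave 0 of 5 calls and the other inhibitors 3 of 14, a difference that was not tested. Of all genes, 0.816% were called higher and 0.587% lower there. Against WT Sham, *Card9* KO MI had 9 other inhibitors higher and 0 lower, beside 34.8% and 14.3% of all genes, and 8 to 9 higher and 1 to 3 lower under the 3 other scalings.

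Of 15 cytokines and receptors known to act on *Timp1*, all were tested, and 10 rose and 1 fell in WT MI against WT Sham (median 0.85), beside 27.7% and 9.39% of all genes. Under the 3 other scalings 8 to 9 rose and 2 fell. *Il6* was not listed in WT Sham and reached 5.08 and 5.94 for WT MI and 4.34 and 6.79 for *Card9* KO MI. *Il1b* rose by 2.34 and *Tgfb2* by 1.69, and *Il11ra1* had −0.33, a call lost in 8 of 16 alternatives. None of the 15 was called between the infarct groups, where 0.816% of all genes were called higher and 0.587% lower. Their median there was 0.12, beside 0.04 for all genes. The absence of calls did not hold in every alternative. Against WT Sham, *Card9* KO MI had 10 of them higher and 1 lower, beside 34.8% and 14.3% of all genes.

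Markers of cells that can express *Timp1* moved with it. Fibroblast markers had 7 of 9 called higher in WT MI against WT Sham and macrophage markers 9 of 9, beside 27.7% of all genes. Neutrophil markers had 6 of 6 tested called higher, with sums of 7.64 and 5.40 for WT Sham, 212 and 93.1 for WT MI, and 59.8 and 46.7 for *Card9* KO MI. *Camp* was not listed and *Ngp* was at 0 in 5 of the 6 libraries. The ratio of *Timp1* to WT Sham was larger than that of the sum of each of these lists. Per 1000 FPKM of fibroblast markers it was 9.93 and 10.2 for WT Sham, 187 and 120 for WT MI, and 72.3 and 62.0 for *Card9* KO MI. Per 1000 FPKM of macrophage markers, whose sum was 237 and 268 for WT Sham, 821 and 1011 for WT MI, and 1766 and 1313 for *Card9* KO MI, it was 20.0 and 22.1, 364 and 251, and 135 and 150. Relative to both sums *Timp1* was above WT Sham in all infarct libraries. It was lower in *Card9* KO MI than in WT MI relative to these sums, of which the fibroblast sum was carried between the infarct groups by *Col1a1*, *Col1a2*, *Col3a1* and *Postn*. *Pdgfra*, a receptor that marks fibroblasts, had the opposite order, with 15.2 and 15.9 for WT MI and 10.6 and 10.4 for *Card9* KO MI. *Tcf21* had the order of the sum, with 5.04 and 7.88 for WT MI and 12.1 and 8.69 for *Card9* KO MI. Relative to neutrophil markers the order of the infarct groups was the opposite, with 1413 and 2726 for WT MI and 3998 and 4213 for *Card9* KO MI. Between the infarct groups, 3 of 9 fibroblast markers were called higher, and 0 of 9 macrophage and 0 of 6 tested neutrophil markers were called. The shares over all genes were 0.816% higher and 0.587% lower. The part of each cell type in the *Timp1* difference was not tested. The 7 erythroid markers, with *Hbb-bt* not listed, summed to 704 to 4188.

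The genes with profiles most like each member were found by the smallest root mean square difference between centred log2(FPKM + 1) values over the 6 libraries. For *Timp1* they were *Arg1*, arginase 1 (0.26), *Adam8* (0.32) and *Tnc*, tenascin C (0.33). The FPKM of *Arg1* was 0.64 and 0.45 for WT Sham, 90.3 and 86.3 for WT MI, and 47.4 and 44.3 for *Card9* KO MI. *Timp4* was nearest to *Pla2g5* (0.10), *Smco1* (0.12) and *Fyco1* (0.13), of which *Fyco1* had 102 and 124 in WT Sham and 51.1 to 61.1 in the infarct libraries. *Timp2* was nearest to *Wdr34* (0.06), *Srgap2* (0.07) and *Ikbkb* (0.07), *Timp3* to *Rora* (0.04), *Parp4* (0.05) and *Pus1* (0.05), and *Reck* to *Ube2h* (0.05), *Obsl1* (0.05) and *Hr* (0.06). Genes that vary little have small differences to many others, so these distances cannot be compared between members.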

How the data were processed

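RNA of heart tissue was enriched for mRNA, sequenced on an Illumina instrument and mapped to mm9; the submitters' processing notes name BWA and Bowtie2. The FPKM values that the authors deposited, by NCBI gene number, list genes above 0; a gene not listed was set to 0. Read counts were not used, because only 73.4% to 81.6% of low values came out as whole fragments (tolerance 0.15). Symbols came from a RefSeq table of GRCm38.p6 (17390 matched, 51 not), positions from GENCODE vM1 of mm9, upstream sequences from RefSeq. Protein sequences were not used here.

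Genes that reached an FPKM of 1 in 2 or more of the 6 libraries were fitted on log2(FPKM + 1) with limma 3.58.1 in R 4.3.3 (eBayes with trend, 3 groups, no covariates, Benjamini-Hochberg), a scale that understates changes of low genes; fold changes were called at an adjusted p below 0.05 and the script was tested on simulated data. The screen of the study, made with NOIseq, was recomputed from its thresholds as an alternative in R 4.3.3 with 0 replaced by 0.005. With 2 libraries against 2, an exact permutation test could reach no p below 0.333 and was left out. The members and lists were chosen with earlier results of these data known. Of each list and comparison, up to 4 called genes were named, those with the largest changes in each direction, with *Card9*, *Mmp2*, *Mmp9*, *Mmp14*, *Adam17*, the synapsin hosts, the 3 genes most like each member, and *Mmp3* and *Adamts4* in ratios. A gene that this rule would name is not reported here. Markers named for their absence, or for carrying, going with or going against the sum of a list, were chosen after their values were seen. Motifs were searched on both strands in Python 3.11.15. Alternatives were an added 0.1 or 5, no filter, a mean FPKM of 5 as filter, 3 other scalings, only the groups compared, no trend, the replicate number as a block, a fold of at least 2, the screen, and each library left out. Those for the lists were added after the data were seen.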

Additional observations from a re-analysis of the deposited data

How the results depend on the processing

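The calls of *Timp1* and *Timp4* against WT Sham, and of *Timp2* in *Card9* KO MI against WT Sham, held in every refit by limma, at log2 fold changes of 4.77 to 5.67 for *Timp1* and −1.39 to −0.69 for *Timp4* in WT MI, and of 4.43 to 5.33 for *Timp1*, −1.27 to −0.57 for *Timp4* and 0.54 to 0.94 for *Timp2* in *Card9* KO MI. The study's screen passed 1 member, *Timp1*, in each of these comparisons in place of 3, and a fold of at least 2 beside the adjusted p left 1 in *Card9* KO MI against WT Sham. In WT MI against WT Sham, 3 members were called under each scaling and without trend, but upper-quartile scaling, quantile normalization and scaling without the 100 most abundant genes put *Reck* in the place of *Timp3*, as did eBayes without trend (adjusted p = 0.0284 for *Reck* and 0.078 for *Timp3*). The same scalings turned *Timp3* in *Card9* KO MI against WT Sham to −0.18, −0.10 and −0.10, and *Reck* there ranged from −0.1448 to 0.0173 with 1 library left out. The cause was not tested. A mean FPKM of at least 5 removed *Reck*. Over all genes, calls higher and lower in WT MI against WT Sham were 3637 and 1232 as deposited, 2603 and 2159 with upper-quartile scaling, and 2198 and 2447 with quantile normalization, and in *Card9* KO MI against WT Sham 4569 and 1875, 3230 and 2884, and 2755 and 3444; between the infarct groups they were 107 and 77, 88 and 93, and 125 and 118.

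The replicate numbers shared between groups do not mark the same animals, and deviations of same-numbered libraries correlated at −0.01 to 0.02 over genes. With the replicate block, 3, 0 and 3 members were called as without it, and calls over all genes went from 4869 to 4651, from 184 to 71 and from 6444 to 6241. Precision rests on 2 libraries a group and on about 14 to 46 estimated fragments for *Timp1* in WT Sham, *Timp4* and *Reck*.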
